A study of Mus musculus with 4 samples.

Results

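The genes described here are 10 targets of the transcription factor NRF2 outside the glutathione transferases, most of which act in antioxidant defence or supply NADPH, beside 1 growth inhibitor (Osgin1). They are Gclc, Gclm, Slc7a11, Txnrd1, Srxn1, Nqo1, Cbr3, G6pdx, Pgd and Osgin1. They were chosen by name, and their probes were found by matching the RefSeq accession of each non-control probe on the array to a gene symbol. Each of the 10 genes had 1 probe, of 32179 genes and other features on the array. Of the 10, 9 were well above background on all 4 arrays and were tested among 17406 genes or other features, of which 94.7% were well above background on all 4 arrays. Slc7a11 did not rise clearly above background on any of the 4 and was not tested.

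The study measured total RNA from livers of 2 wild type mice and 2 Cyp3a-/- mice, which lack the Cyp3a cluster of drug-oxidising cytochrome P450 genes, with 1 single-colour Agilent array per liver. The comparison asks which liver transcripts differ when this cluster is missing. The labels speak of independent experiments with different animals and name no treatment. No source used here gave strain, sex, age, feeding state or how the allele was made. Both wild type arrays lay on slide 1, and the Cyp3a-/- arrays on slides 2 and 3, so slide and genotype cannot be told apart in any comparison below. Hepatocyte markers gave a high summed signal on every array. All 10 of a list of 10 (albumin and transthyretin among them) were tested, and none passed the test between genotypes. Their summed signal, relative to each array's 75th percentile, was 2777 to 3353 over the livers, beside 49.1 to 61.6 for 10 macrophage markers. Cyp3a11, the main Cyp3a transcript of mouse liver, stood at 7.94 and 8.09 in the wild type livers and at -6.98 and -6.93 in the Cyp3a-/- livers (log2 signal, with each array's 75th percentile set to 0, the scale of all signals below), where it lay under the background limit. It was at least 7204-fold lower (adjusted p = 1.4e-05).

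NRF2, encoded by Nfe2l2, is held in the cytoplasm by KEAP1, which presents it to a ubiquitin ligase for breakdown. Electrophiles and oxidants modify KEAP1, NRF2 then builds up, pairs with small MAF proteins in the nucleus and binds the antioxidant response element in the promoters and enhancers of its targets. In liver these targets make glutathione, reduce thioredoxin and quinones, and regenerate NADPH, on which the reductions draw.

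The core of the antioxidant response element, TGACNNNGC, was searched on both strands from 250 bases before to 50 bases after each start site, since response to this element is what the genes are grouped by. RefSeq promoters of assembly GRCm38.p6 were matched by symbol to 9 of the 10 genes, in 12 start-site windows. The core was in 5 of the 12 windows, those of 5 genes, and in 12.4% of all 32851 promoter windows of the same length. The matches are printed 5′ to 3′ on the gene's strand, with the core in capitals. In all but Pgd it reads as the reverse complement, GCNNNGTCA.
Gclm (chr3:122245413-122245441, plus strand): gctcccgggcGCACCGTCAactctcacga
Txnrd1 (chr10:82859104-82859132, plus strand): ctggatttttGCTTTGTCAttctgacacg
Srxn1 (chr2:152105542-152105570, plus strand): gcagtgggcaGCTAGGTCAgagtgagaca
G6pdx (chrX:74428919-74428947, minus strand): aggcgggtcaGCTCAGTCAaagcacacgc
Pgd (chr4:149166061-149166089, minus strand): atttcagagcTGACATTGCactgatcgga

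The first base of the core lay at -134 from the start site in Gclm, at -92 in the middle of 3 Txnrd1 windows and at -57 in G6pdx. In Srxn1 and in the second Pgd window it lay after the start site, at 29 and 4. No match was found in the windows given for Nqo1, Slc7a11, Osgin1 and Cbr3, which says only that these letters are not in those windows. A match is a description of the letters and not of a bound site.

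None of the 9 tested genes passed the threshold between genotypes (limma, adjusted p under 0.05; 0 higher and 0 lower), where 0.276% of all tested genes did. At an unadjusted p under 0.05 the count was 2 of 9, G6pdx and Osgin1, both with lower signal in the Cyp3a-/- livers, where 5.42% of all tested genes reached that p with lower signal and 4.60% with higher signal. The signals of the genotypes did not overlap for 4 of the 9 genes, 3 with lower signal in the Cyp3a-/- livers (G6pdx, Osgin1 and Srxn1) and 1 with higher signal (Pgd). Over all tested genes that share was 42.8%, with 22.5% higher and 20.2% lower, so the share among these genes lay near the background. The log2 fold change was below 0 for 6 of the 9 genes and for 48.6% of all tested genes. Its median over the 9 was -0.28, beside 0.01 over all tested genes. That median depended on single livers of both genotypes. It moved to -0.54 without wild type 1 and to -0.02 without wild type 2, and to -0.18 without Cyp3a-/- 1 and -0.43 without Cyp3a-/- 2. In bulk liver, fewer cells that carry a transcript and less of it per cell cannot be told apart.

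**Figure D1:**
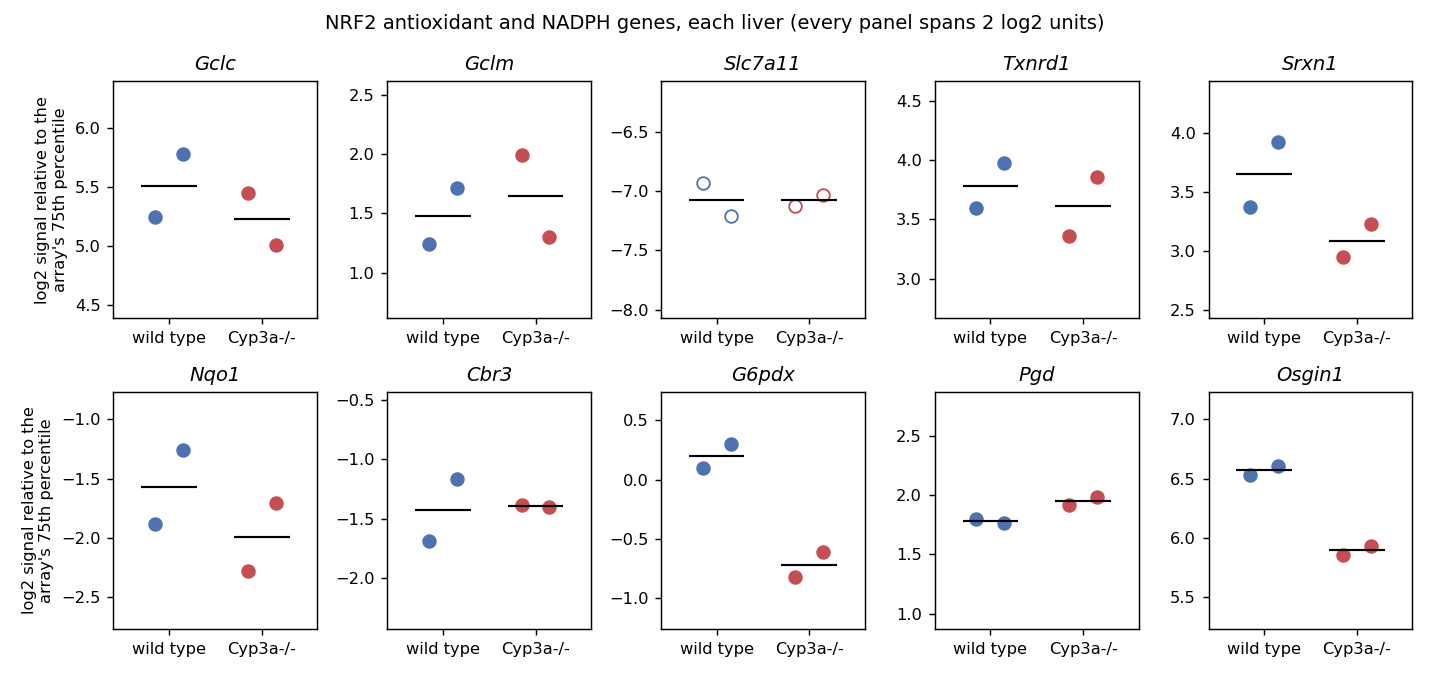
Log2 signal (0 is the 75th percentile of that array) for each of the 10 genes, 1 point per liver (wild type blue, Cyp3a-/- red; filled points were well above background, open points were not) with a bar at each genotype's mean; every panel spans the same number of log2 units. The genotypes separate for Srxn1, G6pdx, Pgd and Osgin1, as they do for 42.8% of all tested genes, and overlap for the other genes tested here. Slc7a11 lies near -7 on every array.

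The NADPH genes among the 10, G6pdx and Pgd, had fold changes of opposite sign, and neither passed the threshold. G6pdx encodes glucose-6-phosphate dehydrogenase, the first and rate-limiting enzyme of the oxidative pentose phosphate pathway. Its log2 signal was 0.10 in wild type 1, 0.30 in wild type 2, -0.82 in Cyp3a-/- 1 and -0.61 in Cyp3a-/- 2. Both Cyp3a-/- livers lay below both wild type livers, with a gap of 0.71 between the nearest livers of the genotypes and 0.20 to 0.21 between livers of one genotype. The genotype means were 0.20 ± 0.14 and -0.72 ± 0.15 (SD, n = 2), a log2 fold change of -0.92 ± 0.19 (SE) with an unadjusted 95% interval of -1.39 to -0.44. Wild type signal was thus 1.89 times that of Cyp3a-/-. The adjusted p was 0.246, which misses the threshold, and this was the smallest among the 9 genes. The probe of G6pd2, a closely related gene, stayed under the background limit in all 4 livers.

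Pgd encodes 6-phosphogluconate dehydrogenase, which makes NADPH in the pathway's oxidative branch downstream of G6pdx. It stood at 1.80 in wild type 1, 1.76 in wild type 2, 1.91 in Cyp3a-/- 1 and 1.98 in Cyp3a-/- 2. The Cyp3a-/- livers were slightly higher than both wild type livers, by a log2 fold change of 0.17 ± 0.17 (SE; adjusted p = 0.769). Its unadjusted 95% interval, -0.26 to 0.60, took in 0, so its direction is not settled. The difference between Pgd and G6pdx was not tested.

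Among 12 lists of cell type markers, the summed signals of red blood cell and macrophage markers lay in the same order over the livers as G6pdx. Single markers of both lists did not all do so. The sums of the other lists lay in other orders. Of 8 erythroid markers 5 were tested, none passed, and their summed signal relative to the 75th percentile was 91.8 and 107 in the wild type livers and 46.7 and 75.2 in the Cyp3a-/- livers. Within that list the globin genes Hba-a1 and Hbb-bt stood at -1.07 ± 0.31 (adjusted p = 0.359) and -0.81 ± 0.24 (adjusted p = 0.377). Of the other 3, Slc4a1 stood at -0.29 ± 0.18, and Alas2 and Klf1 at 0.01 ± 0.27 and 0.18 ± 0.23, both highest in Cyp3a-/- 2. Epb42, which encodes a red cell membrane protein, did not pass the filter on dim probes. All 10 macrophage markers were tested and none passed. They summed to 60.2 and 61.6 in wild type and to 49.1 and 54.1 in Cyp3a-/- livers, with the scavenger receptor gene Marco furthest from 0 at -1.47 ± 0.30 (adjusted p = 0.246) and the other 9 between -0.32 and 0.16. Centred on each marker's mean, their medians of 0.09 and 0.04 in wild type 1 and 2 and of -0.11 and 0.01 in Cyp3a-/- 1 and 2 lay in another order than G6pdx. None of the genes tested from 12 lists of cell type markers passed. Elsewhere in those lists, the log2 fold change was below 0 for 8 of 8 stellate cell markers and 5 of 6 lymphocyte markers. It was above 0 for 9 of 10 hepatocyte markers, and it was below 0 for 48.6% of all tested genes. The part of these cells in the G6pdx values was not tested.

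Osgin1, which encodes an oxidative stress-induced growth inhibitor, had close values within each genotype. It stood at 6.53 in wild type 1, 6.61 in wild type 2, 5.85 in Cyp3a-/- 1 and 5.93 in Cyp3a-/- 2. The genotypes were 0.60 apart at their nearest livers, while livers of one genotype differed by 0.08. The log2 fold change was -0.68 ± 0.17 (SE; unadjusted 95% interval -1.11 to -0.24), so that wild type signal was 1.60 times that of Cyp3a-/-. Its adjusted p of 0.317 misses the threshold. The small spread of Osgin1 counted only in part, since limma weighted it by 2 residual degrees of freedom and the spread common to all genes by 3.54. An exact permutation test of 2 livers against 2 cannot give a p below 0.333.

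Among the genes of thioredoxin and peroxiredoxin reduction, the genotypes separated for Srxn1 but not for Txnrd1, and neither gene passed the threshold. Over all tested genes, the genotypes separated for 42.8%. Srxn1 encodes sulfiredoxin, which restores over-oxidised peroxiredoxins. Its signal was 3.38 and 3.92 in wild type 1 and 2, and 2.95 and 3.23 in Cyp3a-/- 1 and 2. The nearest livers were 0.15 apart, less than the 0.55 between the wild type livers. The log2 fold change of -0.56 ± 0.25 (SE; 95% interval -1.19 to 0.07; adjusted p = 0.549) lay between -0.83 without wild type 1 and -0.29 without wild type 2.

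Txnrd1 encodes the cytosolic thioredoxin reductase, a selenoprotein that passes electrons from NADPH to thioredoxin. It stood at 3.60 and 3.97 in the wild type livers and at 3.36 and 3.86 in the Cyp3a-/- livers. The values of the genotypes interleaved, and the log2 fold change was -0.18 ± 0.25 (adjusted p = 0.843). It turned to 0.07 without Cyp3a-/- 1 and to 0.01 without wild type 2.

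The glutathione synthesis genes gave no common direction. Glutamate-cysteine ligase makes the rate-limiting step, with Gclc as its catalytic and Gclm as its modifier subunit. Gclc stood at 5.25 and 5.77 in the wild type livers and at 5.45 and 5.01 in the Cyp3a-/- livers, a log2 fold change of -0.28 ± 0.27 (adjusted p = 0.753). That value was -0.54 without wild type 1 and -0.50 without Cyp3a-/- 1, but -0.02 without wild type 2 and -0.06 without Cyp3a-/- 2. Gclm stood at 1.24 and 1.71 in the wild type and at 1.99 and 1.30 in the Cyp3a-/- livers, with a log2 fold change of 0.17 ± 0.30 (adjusted p = 0.875). Both subunits had overlapping genotypes, and both were higher in Cyp3a-/- 1 than in Cyp3a-/- 2, the reverse of the order seen for Srxn1, Txnrd1 and Nqo1. For Gclm the sign turned to -0.07 without wild type 1 and to -0.18 without Cyp3a-/- 1.

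Slc7a11 encodes the light chain of the cystine importer system xc-, which feeds cysteine into glutathione synthesis. Its log2 signal was -6.93 and -7.21 in the wild type livers and -7.12 and -7.04 in the Cyp3a-/- livers, all below the dimmest probe called well above background on those arrays, at -4.93 to -4.65. No fold is given for it, since both genotypes lay under the background limit. Its heavy-chain partner Slc3a2, named here after its values were seen, was measured on all arrays and stood at -0.45 ± 0.21 (adjusted p = 0.573).

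Nqo1 and Cbr3, which reduce quinones and carbonyl compounds, overlapped between genotypes. Nqo1, the most widely used read-out of NRF2 activity, stood at -1.89 and -1.26 in the wild type livers and at -2.27 and -1.71 in the Cyp3a-/- livers. Livers of one genotype differed by 0.63 and 0.57, more than the genotype means, whose log2 fold change was -0.42 ± 0.31 (95% interval -1.18 to 0.35; adjusted p = 0.683). It was -0.73 without wild type 1 and -0.70 without Cyp3a-/- 2, but -0.11 without wild type 2 and -0.14 without Cyp3a-/- 1.

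Cbr3, a carbonyl reductase that uses NADPH, stood at -1.69 and -1.17 in the wild type and at -1.38 and -1.40 in the Cyp3a-/- livers. Both Cyp3a-/- values lay between the wild type values. The log2 fold change was 0.04 ± 0.23 (adjusted p = 0.965), turning to -0.22 without wild type 1.

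**Figure D2:**
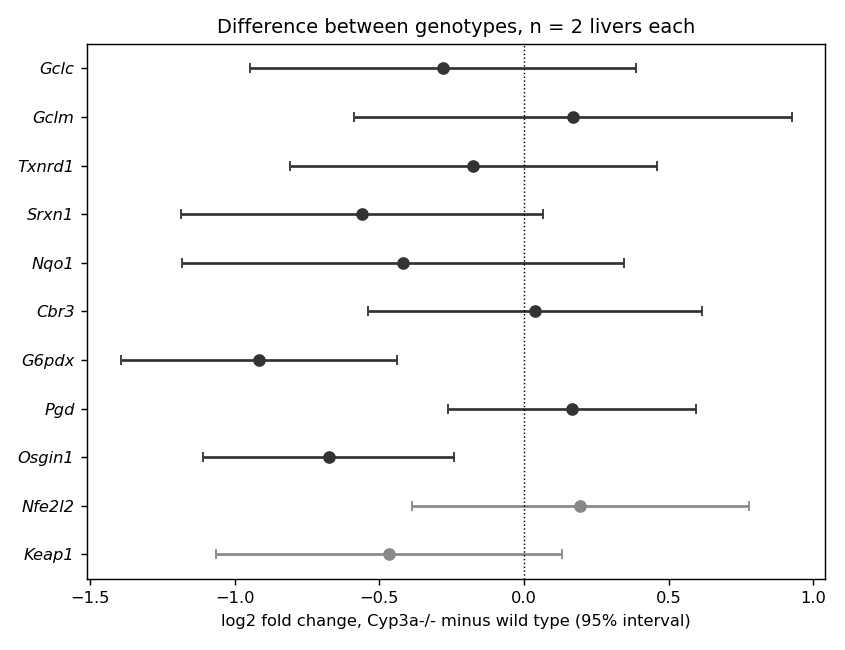
Log2 fold change of the 9 tested genes and of Nfe2l2 and Keap1 (grey), Cyp3a-/- minus wild type, with unadjusted 95% intervals from limma's moderated standard errors (n = 2 livers per genotype). Only the intervals of G6pdx (-1.39 to -0.44) and Osgin1 (-1.11 to -0.24) leave out 0, and neither gene passed after adjustment over all genes.

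Spread between livers of one genotype was wide for most of these genes. The wild type livers differed by a median of 0.47 log2 units over the 9 genes, beside 0.20 over all tested genes, and the Cyp3a-/- livers by 0.28 beside 0.25. For the 5 genes whose genotypes overlapped, the wild type livers were 0.38 to 0.63 apart, more than the genotype means of the same gene. That comparison is partly fixed by the choice of genes, since overlap keeps the means no further apart than the larger gap within a genotype. For the other tested genes the wild type livers were 0.55 (Srxn1), 0.20 (G6pdx), 0.08 (Osgin1) and 0.04 (Pgd) apart. For 7 of the 9 genes (77.8%), all but Gclm and Pgd, the highest liver was wild type 2, which was highest for 24.1% of all tested genes. Cyp3a-/- 1 held the lowest value for 5 of the 9 and for 32.5% of all tested genes. Centred on each gene's mean, the median of the 9 genes was -0.10 in wild type 1, 0.38 in wild type 2, -0.34 in Cyp3a-/- 1 and -0.14 in Cyp3a-/- 2.

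**Figure D3:**
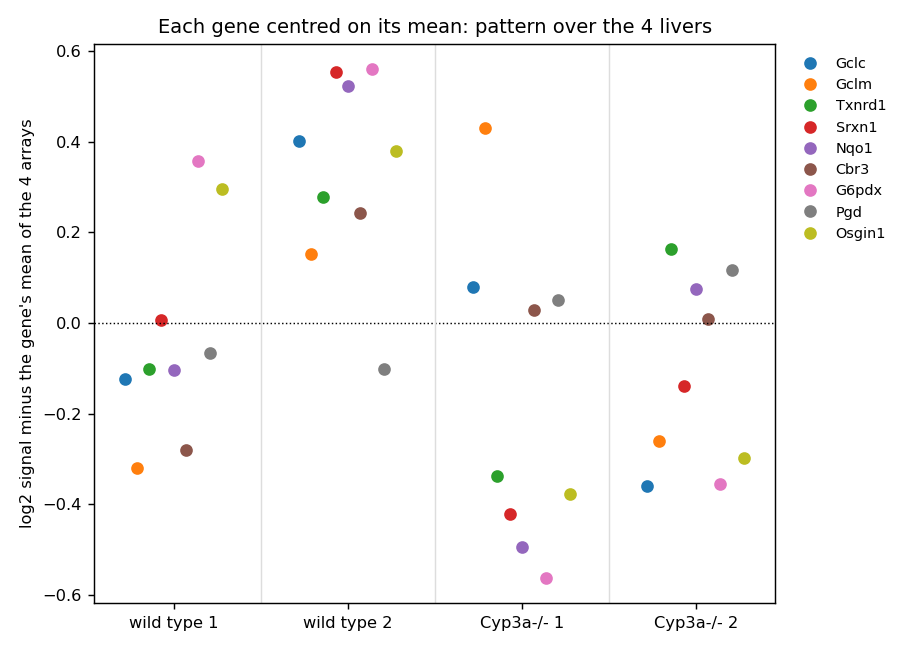
Log2 signal of the 9 tested genes in each liver, each gene centred on its mean of the 4 arrays (1 colour per gene; points are offset sideways for legibility). In wild type 2, 8 of the 9 genes lie above 0, with Pgd below it, while wild type 1 and the Cyp3a-/- livers hold genes on both sides.

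The regulators of the pathway did not pass the test either. Of 10 genes of NRF2 control 9 were tested, with 0 called and 0 at an unadjusted p under 0.05, and their median log2 fold change was 0.01. Nfe2l2 itself stood at 2.07 and 2.60 in the wild type and at 2.49 and 2.57 in the Cyp3a-/- livers (log2 fold change 0.20 ± 0.23; adjusted p = 0.804), a value that turned to -0.07 without wild type 1 and was 0.46 without wild type 2. Keap1 stood at 2.69 and 2.59 in wild type and at 1.90 and 2.45 in Cyp3a-/- livers, with Cyp3a-/- 1 lowest (-0.47 ± 0.24; adjusted p = 0.586; -0.19 without Cyp3a-/- 1 and -0.74 without Cyp3a-/- 2). NRF2 is controlled mainly through the stability of its protein, which arrays do not measure.

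Other NRF2 targets showed no call in either direction. All 28 listed were tested, 0 passed, and 2 with higher and 2 with lower signal reached an unadjusted p under 0.05. Over all tested genes, 4.60% reached that p with higher and 5.42% with lower signal. Their median log2 fold change of 0.11 turned to -0.03 with quantile normalization. The 4 genes were the efflux pump genes Abcc4 (-0.55 ± 0.18; adjusted p = 0.411) and Abcc3 (0.63 ± 0.21; adjusted p = 0.418), the prostaglandin reductase gene Ptgr1 (-0.45 ± 0.18; adjusted p = 0.487) and the quinone reductase gene Nqo2 (0.45 ± 0.18; adjusted p = 0.495), the last named after its values were seen. The heme-degrading enzyme gene Hmox1, also named after its values were seen, stood at -0.42 ± 0.22 (adjusted p = 0.594), and its other probe at -0.18.

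Among the further enzymes of glutathione supply and use, 20 of 21 were tested and 0 passed, with 1 at an unadjusted p under 0.05. That gene was Cth, cystathionine gamma-lyase, which makes cysteine from methionine-derived cystathionine. It stood at 4.69 and 4.90 in the wild type and at 5.56 and 5.96 in the Cyp3a-/- livers, so that both Cyp3a-/- livers were higher (0.96 ± 0.22; adjusted p = 0.272), and its other probe gave 0.97. The list's median was 0.07 and turned to -0.08 with quantile normalization. Of the genes of thioredoxin and peroxide removal, 19 of 19 were tested, with 0 called and 0 at an unadjusted p under 0.05. Their median of 0.12 turned to -0.02 with quantile normalization.

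Under NADPH supply 19 other genes were listed, some of them for neighbouring steps that make no NADPH themselves, such as Rpe. The lists share genes, so their counts and medians are not separate observations. Me1, Tkt and Taldo1 of this list were also among the other NRF2 targets. So were Gsr of the glutathione list and Txn1 and Prdx1 of the thioredoxin list. Of the 19, 17 were tested and 0 passed, with 1 higher and 1 lower at an unadjusted p under 0.05. The list's median of 0.08 came to 0.00 after rounding with quantile normalization. Rpe, an epimerase of the non-oxidative pentose phosphate branch, stood at 0.57 ± 0.22 (adjusted p = 0.494). Mthfd1l, a mitochondrial enzyme of folate metabolism, lay under the background limit in both Cyp3a-/- livers and was at least 4.0-fold lower. It entered the test only through the wild type livers, and its other probe was too dim to be kept. The limma adjusted p of 0.079 belongs to its log2 fold change of -3.14, which uses the Cyp3a-/- signals under that limit. The malic enzyme gene Me1, named after its values were seen, gave -0.28, -0.36 and -0.92 from its 3 probes, so that their sizes differed.

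Lipogenic genes, which draw on NADPH, were set beside G6pdx and Pgd. Of 15 listed 14 were tested and 0 passed, with 1 higher and 4 lower at an unadjusted p under 0.05. Over all tested genes, 4.60% reached that p with higher and 5.42% with lower signal. The list's median was -0.11, which was 0.01 without Cyp3a-/- 1 and -0.40 without Cyp3a-/- 2. The fatty acid elongase gene Elovl5 stood at -0.91 ± 0.19 (adjusted p = 0.247) and the desaturase gene Scd1 at -0.79 ± 0.21 (adjusted p = 0.323). The gene furthest from 0, named after its values were seen, was higher. It was Thrsp, which encodes a regulator of lipid synthesis, at 1.72 ± 0.53 (adjusted p = 0.389). Of the 14 genes 10 lay below 0 and 4 above, where 48.6% of all tested genes lay below 0.

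Targets of the xenobiotic receptor CAR in the same livers gave a different picture, with 4 of 8 tested genes (Cyp2b10, Cyp2c55, Slco1a4 and Ces2a) higher past the threshold and a median log2 fold change of 1.66. Over all tested genes, 0.178% were higher past the threshold. That list was chosen from an earlier look at these livers and is not independent evidence of its direction. No test of the difference between these lists was made.

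**Figure D4:**
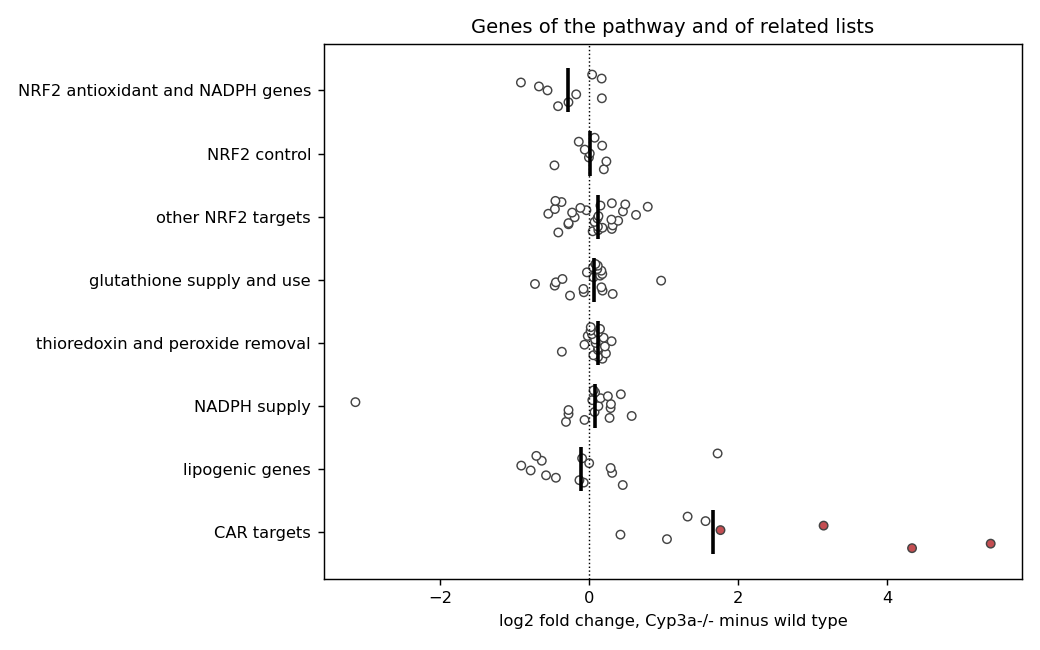
Log2 fold change, Cyp3a-/- minus wild type, of every tested gene in the NRF2 antioxidant and NADPH set and in 7 related lists (1 point per gene, filled red where the limma adjusted p was under 0.05, with a black bar at the list's median). The 9 NRF2 genes have a median of -0.28 and no filled point, and only the CAR list holds filled points.

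The genes most like G6pdx over the 4 arrays, by Euclidean distance of values centred on each gene's mean, were Chadl (0.08), Elovl5 (0.09) and Zfp605 (0.09). Those most like Nqo1 were Klk1b22 (0.14), Impact (0.16) and Poc1a (0.16). With 4 arrays, a looser likeness, at a wider distance than those of the named genes, was shared by many of the 13093 other named genes. In all, 508 genes lay within 0.5 of G6pdx and 1175 within 0.5 of Nqo1.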

How the data were processed

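RNA of 4 livers, 2 per genotype, was labelled with Cy3, 1 array each. The authors deposited scanner intensity values, which the submitters' processing notes attribute to Agilent Feature Extraction 11.5.1.1. Per the file headers, processed intensity has had background subtracted and trends removed, with no normalization across arrays. Deposited flags of 0 or 1 mark spots well above background, saturated or outlying. A deposited log2 table, of unstated scale, centring and direction, matched at a correlation of 1.00 the signals described next after each probe was centred on its median. Its column medians were 0.06, -0.07, -0.02 and 0.02, and all 3 properties are inferred from that match. The number of per-sample columns not mapped to a sample was 0.

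Control spots and 113 to 148 outlier spots per array were left out, and each array had 54.4% to 56.4% of its probes well above background. Processed intensity was put on the log2 scale and the array's 75th percentile over 39429 probes (an intensity of 308 to 352) was subtracted. A probe was kept when well above background on both arrays of a genotype (21508 probes), and the brightest kept probe stood for a gene. Names came from RefSeq accessions of assembly GRCm38.p6, which named 28025 probes with 1 symbol. The array's design build is older, so coordinates are given for the promoter sequences only.

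The comparison of genotypes used limma 3.58.1 (R 4.3.3), 2-sided, p adjusted by Benjamini-Hochberg across 17406 features, threshold 0.05. The fit was tested on simulated data whose planted changes were larger than those of the tested NRF2 targets. That test does not bear on differences of their size. Where a gene was dim in both livers of a genotype, its fold is a bound ("at least"). The adjusted p given for such a gene comes from its measured signals and not from the bound. The bound is the brighter genotype's mean over the mean, per array, of either the lowest signal well above background or the probe's own signal, whichever was higher. The number of arrays limits the precision of every value. Alternatives were other background correction, scaling, filters, probe choice, blocks and leaving out each array. Named genes were the 10 targets, Nfe2l2, Keap1 and Cyp3a11, the called genes of each list or otherwise up to 3 with the smallest unadjusted p under 0.05, and the 3 genes nearest to G6pdx and Nqo1. A gene that this rule names among the lipogenic genes is not reported here. The genes and lists were chosen with earlier results of these data known.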

Additional observations from a re-analysis of the deposited data

How the results depend on the processing

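In all 14 alternatives none of the NRF2 antioxidant and NADPH genes passed (0 called by limma in each). Their smallest adjusted p in any setting was 0.082, for G6pdx without Cyp3a-/- 2. G6pdx kept its sign in each alternative, between -1.02 and -0.75, as did Osgin1 between -0.83 and -0.64, Srxn1, Nqo1, Gclc and Pgd. Many alternatives could not have changed that sign. The filters, probe choice and blocks left the fold changes of these genes as they were. Where the genotypes did not overlap (G6pdx, Osgin1, Srxn1 and Pgd), leaving out 1 array cannot turn the sign. Gclm, Txnrd1, Cbr3 and the regulator gene Nfe2l2 changed sign when single arrays were left out, and Gclc came to -0.02. The small medians of the related lists did so too. Without wild type 1 the median was -0.01 for NRF2 control and -0.02 for other NRF2 targets. Without Cyp3a-/- 2 it was -0.01 for NRF2 control, -0.06 for glutathione supply and use and -0.01 for NADPH supply. The count of genes called over the whole array was 48 and moved to 659 with median scaling, 13 without a filter on dim probes and 9 with a filter requiring all 4 arrays. With median scaling limma gave the tested NRF2 genes, Nfe2l2, Keap1 and Cyp3a11 all the same SE of 0.32. A gene's own spread thus did not count in that setting, and G6pdx stood at -0.89. Leaving out single arrays gave 7 to 506 (8 without wild type 1, 7 without wild type 2, 94 without Cyp3a-/- 1 and 506 without Cyp3a-/- 2). The cause of the other moves was not tested. With the replicate number as a block 58 genes were called, and with the numbers crossed 56, an alternative added after the replicate differences of the genotypes were seen to correlate at -0.10. The labels do not say that a number pairs livers. Slide as a random block gave 63 calls, with a fitted correlation within slides of -0.20. That setting cannot separate slide from genotype, since no slide held both genotypes. Normexp used the median spot and background intensity, chosen after the files proved to hold no mean spot intensity. A dim signal on all arrays limited what could be said of Slc7a11.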
